A study of Mus musculus with 8 samples.

Results

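The EHD genes *Ehd1*, *Ehd2*, *Ehd3* and *Ehd4* were followed in the hearts of mouse fetuses with and without the type 3 deiodinase, the enzyme that inactivates thyroid hormones. The members were chosen by name, as the rows of the expression table whose gene symbol is one of these 4, among 26590 symbols in 51414 rows. For a gene with more than 1 row, the one of highest level averaged over the genotypes was to be taken, but each member has 1 row, so levels decided nothing. All 4 passed the filter on low values, which asked for more than 1 RPKM in either genotype. The unit of the levels is not named with them and was read as RPKM, the unit of the filter in the study's methods. RPKM are reads per length of transcript and per mapped read, so that levels of different genes can be compared.

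The control group was 4 hearts of genotype Dio3+/+ and the other group 4 hearts of genotype Dio3-/-, which lack a functional *Dio3* in the whole body. No treatment is given for either group, and both were on a C57BL/6J background. Per the study's methods, the mutation was made in another strain and bred into C57BL/6J, and each RNA sample came from an individual mouse. Male fetuses at E13.5 are named in the description of the study, and each sample title gives E13.5. For Dio3-/- hearts 3 and 4 the labels also carry an age of E18.5, and the methods name E14.5 for the sequenced hearts. Values for single hearts are not part of the table used here, so no result could be repeated without hearts 3 and 4. The table gives for each genotype the authors' mean and a coefficient of variation (CV), which is the SD as a fraction of that mean. With 4 hearts, none can lie more than 1.5 SD from its mean if the SD is the sample SD. That kind of SD was assumed, as the definition behind the CV is not stated. The limit, widened by the rounding of the values, gave the range that a single heart could have.

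EHD proteins are ATPases of the dynamin superfamily. They assemble on membranes into rings and scaffolds and help to shape and cut the tubules that bring cell surface proteins back from endosomes. At one end they carry an EH domain, which holds partner proteins with a short NPF motif. EHD1 and EHD3 act at the recycling endosome, EHD4 at the early endosome, and EHD2 sits at the neck of caveolae, the small pits of the surface of muscle and endothelial cells. In heart muscle, EHD proteins are known for bringing ion transporters and calcium channels to the surface together with ankyrin-B.

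The members share the part that binds ATP, and the coding sequence around it is shown because it lets the transcripts be compared at their common core. The 75 bases below, as long as 1 sequencing read, are given 5′ to 3′ on the coding strand, with the 8 codons of the nucleotide-binding P-loop in capitals, from GENCODE transcripts on GRCm38. The P-loop codons are codons 65 to 72 of *Ehd1*, *Ehd2* and *Ehd3* and codons 68 to 75 of *Ehd4*.
Ehd4: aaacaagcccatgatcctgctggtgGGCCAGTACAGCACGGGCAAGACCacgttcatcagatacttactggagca
Ehd3: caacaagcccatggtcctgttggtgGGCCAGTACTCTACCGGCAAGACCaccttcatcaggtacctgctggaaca
Ehd1: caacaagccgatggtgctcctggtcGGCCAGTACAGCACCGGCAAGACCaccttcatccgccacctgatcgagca
Ehd2: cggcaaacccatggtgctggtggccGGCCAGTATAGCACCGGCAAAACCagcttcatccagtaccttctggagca
The *Ehd4* window lies on the minus strand, with 60 bases in exon 1 (chr2:120154240-120154299) and 15 in exon 2 (chr2:120137061-120137075). That of *Ehd3* lies on the plus strand, with 60 bases in exon 1 (chr17:73805410-73805469) and 15 in exon 2 (chr17:73816231-73816245). The *Ehd1* window is in exon 1 on the plus strand (chr19:6277142-6277216), and the *Ehd2* window is in exon 2 on the minus strand (chr7:15964069-15964143). From the *Ehd4* window, that of *Ehd3* differs at 12 bases, that of *Ehd1* at 15 and that of *Ehd2* at 19.

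The coding sequences encode proteins of close length, with 534 codons in *Ehd1*, 543 in *Ehd2*, 535 in *Ehd3* and 541 in *Ehd4*. *Ehd1* and *Ehd3* are the closest pair, identical at 80.0% of aligned coding bases with a longest identical run of 40 bases. The pairs with *Ehd4* are identical at 74.2% (*Ehd1*), 73.8% (*Ehd3*) and 70.7% (*Ehd2*), and the longest run that *Ehd4* shares with any of them is 23 bases. No window of 75 bases in the transcripts used, which are 3353 to 5119 bases long, occurs in a transcript of another gene. The authors counted uniquely mapping reads, so an exact read of that length from one member has no exact match in the transcripts of the other members. No other annotated gene overlaps the 4 genes in GENCODE, whose build may not be that of the authors.

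*Ehd4*, the member of the early endosome, was the most abundant EHD transcript in both genotypes and was higher in Dio3-/- hearts. The authors' mean was 54.79 RPKM (CV 0.09) in Dio3+/+ hearts and 93.64 RPKM (CV 0.06) in Dio3-/- hearts. A single heart could lie between 47.0 and 62.6 RPKM in the control group and between 84.5 and 102.8 RPKM in the other, so every Dio3-/- heart was above every Dio3+/+ heart. The ratio of the means was 1.71, a difference of 38.85 RPKM. On the log2(RPKM + 0.5) scale the fold change was 0.77 (SE 0.07, 95% interval 0.61 to 0.93, n = 4 per genotype), with an adjusted P of 0.00125 by limma over all 32703 rows tested. Of the 14657 genes tested, by the main row of each, 60 (0.409%) had a log2 fold change at least as high, *Ehd4* included. By P value *Ehd4* was the 13th gene. In bulk RNA from whole hearts, more cells that contain a transcript and more of it per cell cannot be told apart.

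*Ehd1*, the member that drives exit from the recycling endosome, was lower in Dio3-/- hearts by a small amount. Its mean was 34.19 RPKM (CV 0.03) in Dio3+/+ hearts and 29.65 RPKM (CV 0.02) in Dio3-/- hearts, a ratio of 0.867. A single heart could lie between 32.4 and 36.0 RPKM in Dio3+/+ and between 28.5 and 30.8 RPKM in Dio3-/-, so the genotypes did not overlap. The log2 fold change was -0.20 (SE 0.04, 95% interval -0.29 to -0.11, n = 4 per genotype), with an adjusted P of 0.0433 by limma. In size this difference was common, since 1191 genes (8.13%) had a log2 fold change as low or lower, of which 55 passed the test in that direction. The spread of *Ehd1* was small, as 3.41% of genes had a smaller CV in Dio3+/+ hearts and 1.89% in Dio3-/- hearts. The CVs are given to 2 decimals, and with each CV raised by 0.005, the most that rounding can hide, the adjusted P of *Ehd1* was 0.0742. It was also above 0.05 without the mean-variance trend (0.0700) and by an unmoderated test with unequal variances (0.0868).

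*Ehd3*, the closest relative of *Ehd1* and the member tied to ankyrin-B in heart muscle, was the least abundant. Its mean was 1.68 RPKM (CV 0.12) in Dio3+/+ hearts and 1.58 RPKM (CV 0.08) in Dio3-/- hearts, above 8.44% of the genes tested when both genotypes are averaged. A single heart could lie between 1.36 and 2.00 RPKM in Dio3+/+ and between 1.37 and 1.79 RPKM in Dio3-/-, ranges that overlap over most of their width. The log2 fold change was -0.07 (SE 0.10, adjusted P = 0.758 by limma), with a 95% interval from 0.822-fold to 1.11-fold on the scale of RPKM + 0.5. A change of the size seen for *Ehd4* lies outside this interval, and one of the size seen for *Ehd1* lies inside it.

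*Ehd2*, the member of the caveola neck, did not pass the test. Its mean was 38.69 RPKM (CV 0.08) in Dio3+/+ hearts and 40.69 RPKM (CV 0.05) in Dio3-/- hearts. The range open to a single heart was 33.8 to 43.6 RPKM in Dio3+/+ and 37.3 to 44.1 RPKM in Dio3-/-, so the genotypes may overlap. The log2 fold change was 0.07 (SE 0.06, adjusted P = 0.602 by limma), with a 95% interval from 0.951-fold to 1.16-fold. The value of *Ehd2* was close to the median log2 fold change of all genes tested, 0.04.

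**Figure D1:**
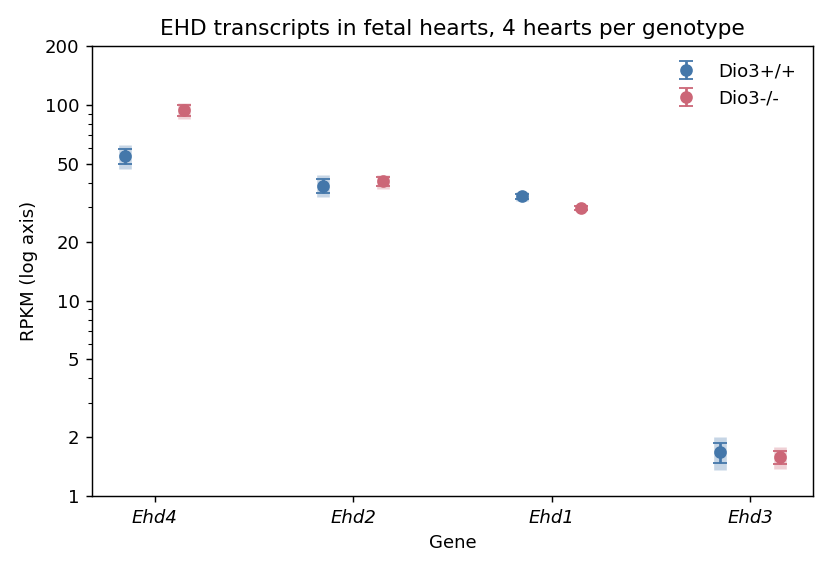
The vertical log axis gives RPKM and the horizontal axis the 4 EHD genes, with Dio3+/+ in blue and Dio3-/- in red (4 hearts each), points for the authors' means, bars for 1 SD and shaded bands for the range that a single heart could have. The bands are apart for *Ehd4* (47.0 to 62.6 against 84.5 to 102.8 RPKM) and for *Ehd1*, and overlap for *Ehd2* and *Ehd3*.

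Of the 4 members, 1 was higher and 1 was lower with an adjusted P under 0.05. By rows, 703 of 32703 (2.15%) passed. Over the 14657 genes tested, 336 (2.29%) passed, 280 upward in Dio3-/- hearts (1.91% of those tested) and 56 downward (0.382%). Ranges of single hearts that cannot overlap were found for the same 2 members, *Ehd4* upward and *Ehd1* downward, and for 564 (3.85%) of all genes tested, 497 (3.39%) upward and 67 (0.457%) downward. The members were chosen with results of these data known, so that these shares describe the family and are not a test of it.

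**Figure D2:**
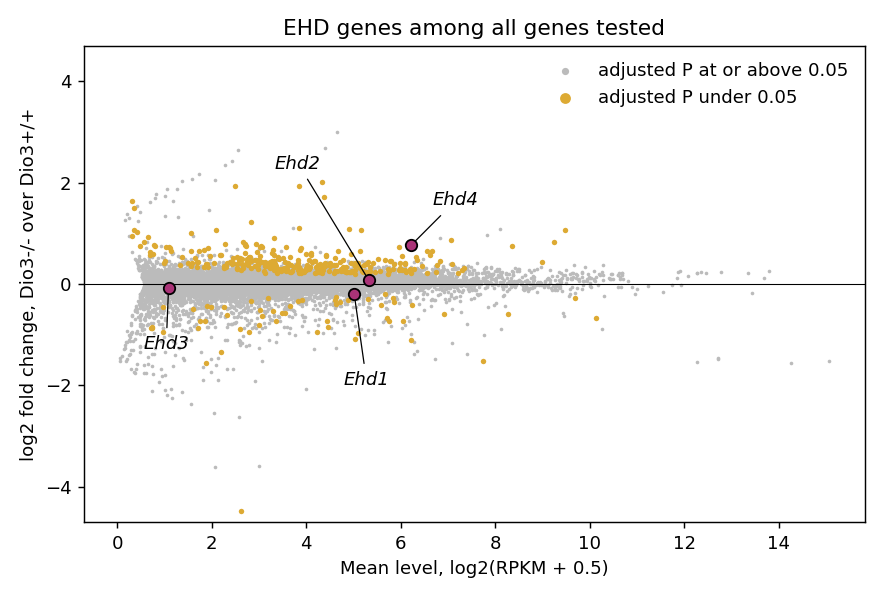
Each point is 1 of 14657 genes, with its mean level over both genotypes as log2(RPKM + 0.5) on the horizontal axis and its log2 fold change, Dio3-/- over Dio3+/+, on the vertical axis. Genes with an adjusted P under 0.05 are yellow, and the 4 EHD genes, outlined, lie at 0.77 (*Ehd4*), 0.07 (*Ehd2*), -0.20 (*Ehd1*) and -0.07 (*Ehd3*).

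The order of the levels was *Ehd4*, *Ehd2*, *Ehd1*, *Ehd3* in both genotypes. In Dio3+/+ hearts the possible ranges of the neighbours *Ehd2* and *Ehd1* overlap. The lowest possible *Ehd2* heart (33.8 RPKM) was below the highest possible *Ehd1* heart (36.0 RPKM). Both genes were measured in the same hearts, so with this overlap their order within a single Dio3+/+ heart is unknown. In Dio3-/- hearts the same pair was apart, with *Ehd2* at 37.3 RPKM or more and *Ehd1* at 30.8 RPKM or less. The other neighbours were apart in both genotypes. Averaged over the genotypes, *Ehd4* was above 93.8%, *Ehd2* above 87.5% and *Ehd1* above 83.8% of the genes tested.

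Summed, the 4 means gave 129.35 RPKM for Dio3+/+ and 165.56 RPKM for Dio3-/-. Without *Ehd4* the sums were 74.56 and 71.92 RPKM. *Ehd4* made up 42.4% of the family sum in Dio3+/+ and 56.6% in Dio3-/- hearts. The share of *Ehd2* was 29.9% and 24.6%, that of *Ehd1* was 26.4% and 17.9%, and that of *Ehd3* was 1.30% and 0.954%. The ratio of *Ehd4* to *Ehd1* was 1.60 in Dio3+/+ and 3.16 in Dio3-/- hearts, and that of *Ehd4* to *Ehd2* was 1.42 and 2.30. These shares and ratios come from genotype means read as RPKM and carry no test.

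The log2 fold changes of the members were also set against each other, over 6 pairs. Their 95% intervals are not adjusted for the number of pairs. The members were chosen with results of these data known, so the intervals describe them and are not a test. The SE of each difference was taken as the sum of both SEs. This is the largest it can be with these SEs, which are themselves estimates. It was used since how 2 genes vary together within a heart is unknown from the means. The fold change of *Ehd4* exceeded that of *Ehd1* by 0.97 (95% interval 0.72 to 1.22), that of *Ehd3* by 0.84 (0.46 to 1.21) and that of *Ehd2* by 0.70 (0.39 to 1.00). That of *Ehd2* exceeded that of *Ehd1* by 0.27 (0.04 to 0.51). That of *Ehd3* exceeded that of *Ehd1* by 0.13 (-0.17 to 0.44), and that of *Ehd2* exceeded that of *Ehd3* by 0.14 (-0.22 to 0.50), both intervals that include 0.

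**Figure D3:**
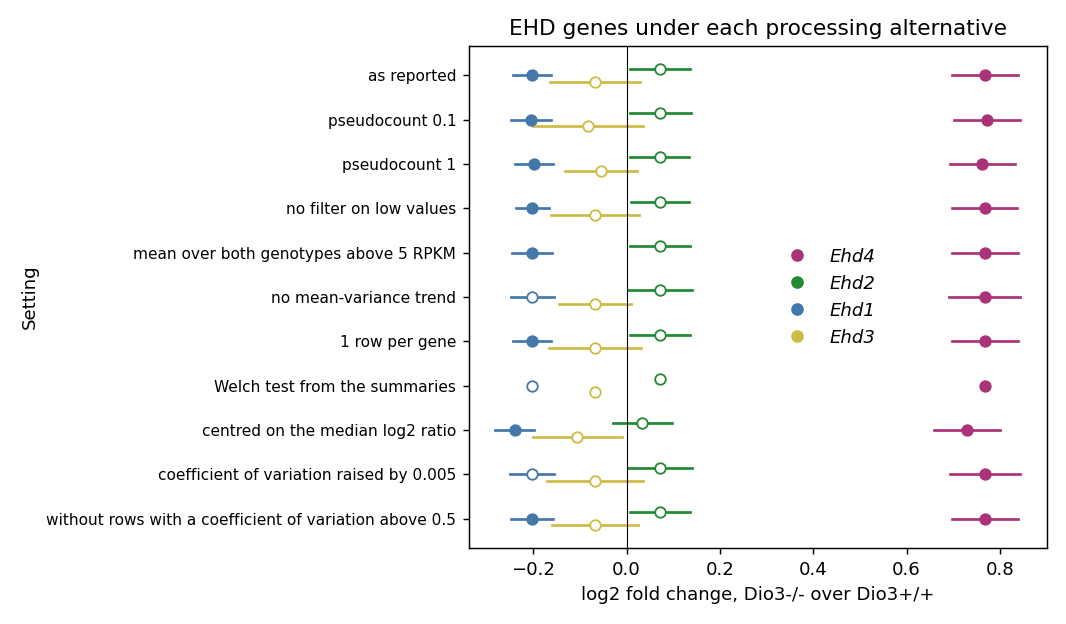
The horizontal axis gives the log2 fold change, Dio3-/- over Dio3+/+, of each EHD gene under the reported setting and 10 alternatives (rows), with bars of 1 SE where the test gives one and filled points where the adjusted P is under 0.05. *Ehd4* stays between 0.73 and 0.77 and filled in all 11 rows, *Ehd1* between -0.24 and -0.20 and open in 3 of them, and *Ehd2* and *Ehd3* are open in each row that has them.

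The genes that EHD proteins work with were described by 7 lists that hold 69 genes, of which 68 were found and 65 tested. By limma 0 of the 65 passed at an adjusted P under 0.05 in the main row, where 2.29% of all genes did. At an unadjusted P under 0.05, 11 were higher and 1 was lower, where 19.7% of all genes passed that mark, and the unmoderated test with adjustment called 0. Ranges of single hearts that cannot overlap were found for *Opa1* and *Dnm2*, both higher in Dio3-/- hearts, and for 3.85% of all genes. *Dnm2* had 34.03 RPKM in Dio3+/+ hearts and 36.33 RPKM in Dio3-/- hearts (log2 fold change 0.09, adjusted P = 0.218 by limma). The median log2 fold change of the 65 was 0.05, against 0.04 over all genes tested, and their values ran from -0.64 to 0.34. The 0.77 of *Ehd4* was above all of them. The study's own list of changed genes, at q under 0.05 from its own comparison, includes *Dnm2*, *Ank2* and *Opa1* of these lists. It also holds *Ehd4* as higher and *Ehd1* as lower.

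Among the partners that bind EHD proteins, 12 of 14 were tested and their median log2 fold change was 0.07. The lowest was *Micall2*, with 2.94 RPKM in Dio3+/+ hearts and 1.71 RPKM in Dio3-/- hearts (log2 fold change -0.64, adjusted P = 0.0634 by limma). The highest was *Ehbp1l1*, which encodes an EH domain-binding protein, with 25.49 and 31.00 RPKM (0.28, adjusted P = 0.145). *Ank2*, which encodes ankyrin-B, had 12.30 and 13.08 RPKM (0.09, adjusted P = 0.434). *Pacsin1* was below the filter and *Fer1l5* was not found. The 6 tested genes of other EH domain proteins, adaptors of endocytosis, kept within -0.06 (*Eps15l1*) and 0.08 (*Itsn2*).

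The coat of caveolae, where EHD2 sits, gave 7 tested genes with a median log2 fold change of 0.10. *Cav1*, the main caveolin outside muscle, had 48.57 RPKM in Dio3+/+ hearts and 48.26 RPKM in Dio3-/- hearts. *Cav3* had 20.64 RPKM in Dio3+/+ hearts and 24.36 RPKM in Dio3-/- hearts (log2 fold change 0.23, adjusted P = 0.204 by limma). *Cavin1* (in the table as *Ptrf*), needed to form caveolae, had 92.77 and 103.95 RPKM. The lowest value was that of *Cavin2* (in the table as *Sdpr*), at -0.03, and the highest that of *Cavin4* (in the table as *Murc*), the muscle cavin, at 0.32 with 1.01 and 1.39 RPKM (adjusted P = 0.193 by limma). None of the 7 passed the test, as *Ehd2* did not.

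On the endosomes themselves, 21 genes of recycling and early endosomes had a median log2 fold change of 0.04. They ran from -0.17 for *Rab4a*, a GTPase of rapid recycling, to 0.26 for *Tfrc*, the transferrin receptor and classical recycling cargo (18.07 and 21.68 RPKM, adjusted P = 0.338 by limma). The 9 genes of the retromer and its sorting nexins had a median of 0.02, from -0.13 (*Snx1*) to 0.08 (*Vps29*).

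Among 6 tested relatives of the EHD proteins in the dynamin superfamily the median log2 fold change was 0.15. The highest was *Mfn2*, which fuses mitochondria, with 43.29 RPKM in Dio3+/+ hearts and 55.01 RPKM in Dio3-/- hearts (0.34, adjusted P = 0.0595 by limma). *Opa1*, which fuses the inner mitochondrial membrane, had 24.31 and 28.15 RPKM (0.21, adjusted P = 0.0581). *Mfn1*, the other outer membrane mitofusin, did not pass in its main row but passed in 1 of its 4 rows (11.17 and 14.53 RPKM, adjusted P = 0.0370). With rows restricted to a mean above 5 RPKM, *Mfn2* (0.0480) and *Opa1* (0.0485) had an adjusted P under 0.05. The lowest value was that of *Dnm1*, a dynamin that cuts endocytic vesicles, at -0.52, with a CV of 0.65 in Dio3+/+ hearts.

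The 4 cardiac transporters and channels carried by EHD pathways had a median log2 fold change of 0.12. *Slc8a1*, the sodium-calcium exchanger, had 212.23 RPKM in Dio3+/+ hearts and 249.58 RPKM in Dio3-/- hearts (0.23, adjusted P = 0.193 by limma). *Cacna1c*, the L-type calcium channel, was at 0.08, and the T-type channels *Cacna1h* and *Cacna1g* were at 0.15 and -0.48. *Cacna1g* had 5.52 RPKM with a CV of 0.74 in Dio3+/+ hearts and 3.82 RPKM in Dio3-/- hearts, a difference smaller than the SD of the former.

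**Figure D4:**
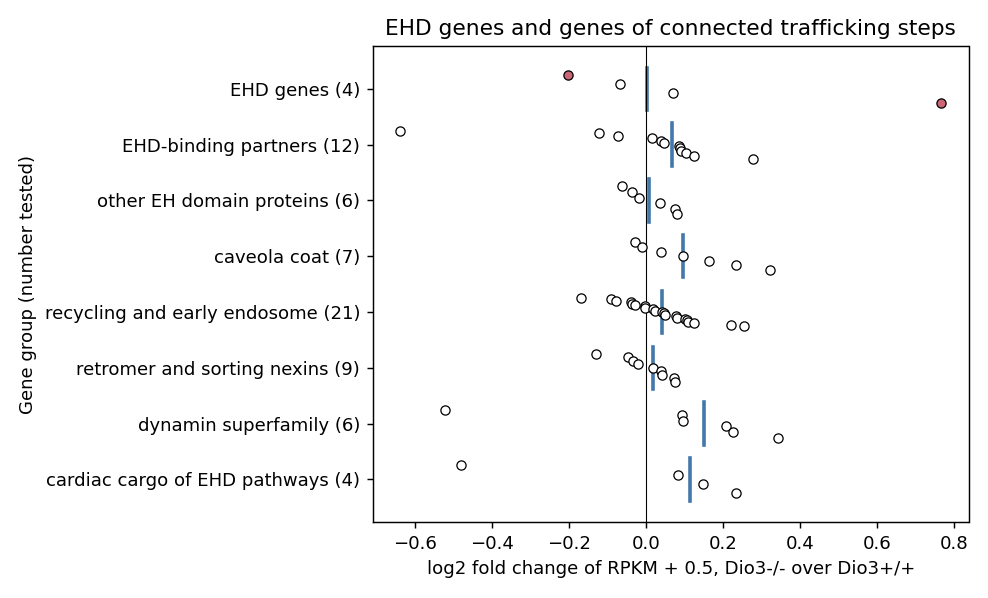
Each point is 1 tested gene and the horizontal axis is its log2 fold change on the log2(RPKM + 0.5) scale, Dio3-/- over Dio3+/+, by gene group on the vertical axis. Blue lines are medians and filled points have an adjusted P under 0.05, which only *Ehd4* (0.77) and *Ehd1* (-0.20) do among the genes plotted.

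The genes most like each member were taken as the 2 whose pair of genotype means lay nearest on the log2(RPKM + 0.5) scale, a likeness over 2 values. Nearest to *Ehd4* was *Ckm*, the muscle creatine kinase, at a distance of 0.15, with 50.40 RPKM in Dio3+/+ hearts and 87.79 RPKM in Dio3-/- hearts (adjusted P = 0.102 by limma). Next was *Col4a2*, a collagen of basement membranes, at 0.26, with 65.47 and 94.83 RPKM (log2 fold change 0.53, adjusted P = 0.00260). The other members had closer company. *Gabarapl2* (34.10 and 30.12 RPKM) and *Slc3a2* (33.95 and 30.10 RPKM) lay within 0.024 of *Ehd1*, *Strn3* and *Fop* within 0.0061 of *Ehd2*, and *Grrp1* and 4930513N10Rik at 0.013 from *Ehd3*, and none of these 6 passed the test.

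The genes on either side of each member were also read, as the nearest tested gene in the order of RefSeq genes on GRCm38.p6. Genes with no tested row were passed over, from 0 (*Ehd2* to *Gltscr1*) to 7 (each side of *Ehd3*). For *Ehd4* these were 2 toward *Pla2g4b* and 5 toward *Vps39*. Beside *Ehd4*, *Pla2g4b*, which encodes a phospholipase, was at a log2 fold change of -0.03 and *Vps39*, a subunit of the HOPS tethering complex, at 0.04. Beside *Ehd1*, *Atg2a* and *Cdc42bpg* were at 0.05 and -0.12. Beside *Ehd3*, *Lclat1* and *Memo1* were both at 0.14, and beside *Ehd2*, *Gltscr2* and *Gltscr1* were at -0.01 and -0.07. None of these 8 neighbours passed the test.

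The 250 bases before the start of transcription were searched for letters bound by thyroid hormone receptors, AGGTCA, for DR4, the same letters repeated in 1 direction with 4 bases between, and for CCAAT, the letters of a common promoter box, on both strands. RefSeq windows on GRCm38.p6 were at hand for 3 of the 4 members, *Ehd2*, *Ehd3* and *Ehd4*. The windows of *Ehd4*, the member that rose, and of *Ehd3*, the member that holds AGGTCA, are given 5′ to 3′ with the matches in capitals (ATTGG is CCAAT on the other strand).
Ehd4: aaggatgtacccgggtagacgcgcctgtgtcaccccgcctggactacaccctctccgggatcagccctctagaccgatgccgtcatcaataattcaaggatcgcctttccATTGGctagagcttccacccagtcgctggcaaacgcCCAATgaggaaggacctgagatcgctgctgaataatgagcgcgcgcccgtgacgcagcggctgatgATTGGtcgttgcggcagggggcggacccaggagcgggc
Ehd3: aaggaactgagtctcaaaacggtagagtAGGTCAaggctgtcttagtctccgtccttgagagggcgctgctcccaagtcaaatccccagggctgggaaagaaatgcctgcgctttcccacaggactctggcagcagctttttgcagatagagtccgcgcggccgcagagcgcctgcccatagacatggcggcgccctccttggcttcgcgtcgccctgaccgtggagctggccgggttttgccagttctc
The *Ehd4* window (chr2:120154576-120154825, minus strand) holds CCAAT 3 times and AGGTCA 0 times. The *Ehd3* window (chr17:73804591-73804840, plus strand) holds AGGTCA once, 222 bases before the start, and CCAAT 0 times. The *Ehd2* window (chr7:15967536-15967785, minus strand) holds CCAAT once. DR4 was in none of the 3. Among 32536 windows of the same length, 14.0% hold AGGTCA, 0.0154% DR4 and 33.8% CCAAT. The search covers these letters in these windows and nothing beyond them.

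The genotypes also differed in other transcripts. *Dio3* itself was at 0.35 RPKM in Dio3+/+ hearts and 0.13 RPKM in Dio3-/- hearts, below the filter, so it does not check the labels, whereas the hormone-responsive *Klf9* rose from 1.86 to 8.48 RPKM (log2 fold change 1.93, adjusted P = 5.74e-06 by limma) and *Art3* from 7.56 to 31.95 RPKM. The labelled tissue was checked by its markers, with 6 of 6 cardiomyocyte markers found, their summed level 8194.56 RPKM in Dio3+/+ hearts and 9806.06 RPKM in Dio3-/- hearts, and 2 of them (*Myh6* and *Ryr2*) higher. The 6 endothelial markers, of a cell type rich in caveolae, were all tested, none passed, and their sums were 240.51 and 257.79 RPKM. None of 6 fibroblast and epicardial markers (514.01 and 448.28 RPKM), of 3 tested smooth muscle markers of 4 (664.12 and 779.65 RPKM), of 4 tested macrophage markers of 5 (26.96 and 26.26 RPKM) or of 1 tested neuron and Schwann marker of 4 (4.35 and 3.86 RPKM) passed.

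Markers of blood, liver and skeletal muscle had unequal means in the genotypes, mostly within a wide spread between hearts. The 5 red cell markers found of 6 were all lower in Dio3-/- hearts by value, 1 (*Hbb-bh1*) with an adjusted P under 0.05 by limma, and their sum was 37086.90 RPKM in Dio3+/+ hearts and 12662.44 RPKM in Dio3-/- hearts. The 8 liver markers were all higher by value and none passed, with sums of 15.98 and 108.11 RPKM and a median CV of 0.99 and 1.11. The 4 skeletal muscle markers summed to 28.94 and 2.39 RPKM with none of the 3 tested passing, and their median CV was 1.61 in Dio3+/+ hearts. No marker of these 3 lists was at 0 in either genotype, except the red cell marker that was not found and has no value. The part of these tissues in the values of the EHD genes was not tested.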

How the data were processed

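Total RNA of 4 Dio3+/+ and 4 Dio3-/- fetal hearts was depleted of rRNA and sequenced in single-end reads of 75 bases. Per the labels and the study's methods, reads were checked with FastQC, aligned with Novoalign 2.08 and, where uniquely mapping, scaled linearly between samples. The genome build is not given in the sources used here. The authors deposited, for each UCSC known-gene transcript, the genotype mean, read here as RPKM (the unit of the filter in the methods, which the table does not name), and the coefficient of variation (CV), a ratio, both to 2 decimals. Fold changes and q values of the authors' own comparison are also in the table and were not used. Read totals are not part of it: the study's methods state the aligned reads of the samples as a range, and the depth of each sample cannot be read from the values used here.

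Means were placed on the log2(mean + 0.5) scale, where the SD was SD/((mean + 0.5) × ln 2). Variances with 6 residual and 3.52 prior degrees of freedom were moderated with limma 3.58.1 (R 4.3.3) with a mean-variance trend, with Benjamini-Hochberg adjustment over the 32703 rows above 1 RPKM in either genotype and a threshold of 0.05. Genes were counted by their row of highest mean. The scale understates changes of low genes. P values measure the spread between hearts, whose litters and runs are not named. The test was tried on simulated data with 200 of 32703 rows changed. It found 78 of 100 rows changed by a log2 fold change of 0.5 and 100 of 100 changed by 1. It called 3 unchanged rows. Changes as small as that of *Ehd1*, or at a level as low as that of *Ehd3*, were not simulated.

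The members and lists were chosen with earlier results of these data known. Named genes were the members, in each list of trafficking genes those that passed and the highest and lowest, the 2 nearest in level, the nearest neighbours, and *Dio3*, *Klf9* and *Art3*. *Ank2*, *Cav1*, *Cav3*, *Cavin1*, *Opa1*, *Mfn1*, *Dnm2*, *Cacna1c* and *Cacna1h* were named after their values were seen. Alternatives changed the pseudocount, filter, trend, rows per gene, test (Welch's in place of limma's), scaling, rounding and rows of wide spread. Sequences were read with Biopython 1.88 (Python 3.11.15) from GENCODE M21 and RefSeq.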

Additional observations from a re-analysis of the deposited data

How the results depend on the processing

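*Ehd4* was higher with an adjusted P under 0.05 in each of 10 alternatives (log2 fold change 0.73 to 0.77, adjusted P from 0.000390 to 0.0481, the highest by Welch's test from the summaries). *Ehd1* kept its direction in all 10 (-0.24 to -0.20, adjusted P from 0.0261 to 0.0868), but with a log2 fold change of -0.20 it no longer passed without the mean-variance trend (adjusted P 0.0700), by Welch's test (0.0868) or with each coefficient of variation raised by 0.005 (0.0742), so that 1 member passed in these 3 settings in place of 2. *Ehd2* passed in 0 of 10 (0.03 to 0.07, adjusted P from 0.575 to 0.855) and *Ehd3* in 0 of 9 (-0.11 to -0.05, adjusted P from 0.658 to 0.798), the setting above 5 RPKM having no row for it. Of the list genes, 2 passed above 5 RPKM (*Mfn2* and *Opa1*) and 2 without rows with a coefficient of variation above 0.5 (*Mfn2* and *Micall2*), in place of 0. Over all genes the 336 that passed became 197 with no filter, 26 by Welch's test, 180 after centring on the median log2 ratio (a shift of 0.04) and 187 with the coefficient raised, and 250 to 495 in the other settings. The share of them that was higher was 83.3% (280 against 56 lower), 96.2% by Welch's test and 71.7% when centred (129 against 51). The cause was not tested. The family shares rest on 1 row for each gene, so that other choices of row give the same values. No paired analysis was possible because the table holds genotype means and no values for single hearts, and leaving out each heart in turn was not run for the same reason. The limits are that the variance of each row is known to 2 decimals of its coefficient of variation, which bears most on genes of small spread such as *Ehd1*, and that the table does not give the read count behind each value.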
